A study of Homo sapiens with 4 samples.

Results

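The DNA mismatch repair genes described here are MSH3, MSH6, PMS1, PMS2, MLH3, EXO1 and EPM2AIP1, which are 7 of the 61544 genes in the count table of the series and were chosen by name. RNA was sequenced from HCT116 and HT29, which are established colon tumour lines, after 24 h in lipopolysaccharide (LPS) at 1 ug/mL and without it. The groups are HCT116 with LPS, HCT116 control, HT29 with LPS and HT29 control, each with 1 library, and the labels name no genotype and no repeat culture. HCT116 is known to be mismatch repair deficient and HT29 is not, and since each state is represented by a single line, repair status cannot be told apart from any other difference between HCT116 and HT29. The libraries held 19105058 to 21268959 counts.

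Mismatch repair removes the mispaired bases and small loops that DNA polymerases leave behind. MutS proteins recognise the error, MutL proteins join them and nick the new strand, and an exonuclease then removes the faulty stretch before it is copied again. MSH6 gives its MutS dimer a preference for mispaired bases and very short loops, whereas MSH3 directs the other dimer to longer loops. PMS2 carries the endonuclease of the main MutL dimer, MLH3 has a related activity best known from meiosis, and the part of PMS1 in repair is less clear. EXO1 is the exonuclease. EPM2AIP1 encodes a binding partner of the phosphatase laforin and is not itself a repair enzyme. Colon tumours without this pathway change the length of repeats throughout the genome, including repeats inside coding sequence.

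Several members carry such repeats in their own coding sequence. Runs of at least 8 identical bases were found in the canonical coding sequences of 4 of the 7 members, compared with 5.72% of 20046 protein-coding genes in GENCODE 44. That share was not matched for coding length, which ran from 1821 bases in EPM2AIP1 to 4359 in MLH3, and longer sequences have more room for a run. They are shown because runs of this kind are the sequences that lose or gain bases when the pathway fails. The letters are those of the reference genome (hg38) and were not read from these libraries. Each line gives the coding strand from 5′ to 3′ with 15 bases on either side, and capitals mark the run.
MSH3, exon 7, chr5:80675096-80675103, plus strand: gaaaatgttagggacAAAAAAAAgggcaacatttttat
MSH6, exon 5, chr2:47803501-47803508, plus strand: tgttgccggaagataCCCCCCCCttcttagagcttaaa
PMS2, exon 11, chr7:5987526-5987533, minus strand: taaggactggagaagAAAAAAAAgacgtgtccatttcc
MLH3, exon 2, chr14:75047901-75047909, minus strand: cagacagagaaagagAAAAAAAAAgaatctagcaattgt
MLH3, exon 2, chr14:75047635-75047642, minus strand: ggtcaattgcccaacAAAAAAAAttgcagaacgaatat
The run of MSH6 is of C and the others are of A. The longest run in PMS1, EXO1 and EPM2AIP1 was 7 bases.

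The start regions of the members were examined next, since PMS1 and PMS2 begin close to a gene on the opposite strand. RefSeq windows (GRCh38.p14) of 300 bases, from 250 before to 50 after a start site, were searched for 5 members, without EPM2AIP1 and MSH3. An E2F-like motif, searched as TTTCGCGC, TTTGGCGC or TTTCCCGC on both strands, was present in a window of 2 of these 5 members (MSH6 and EXO1) and in 2.74% of all 35116 windows. MSH6 has 4 windows and EXO1 has 2, which gives them more opportunities for a match. The CCAAT motif, also searched on both strands, was present in a window of 3 members (MSH6, PMS1 and PMS2) and in 34.6% of all windows. A GC box (GGGCGG, both strands) was present in a window of 4 members (EXO1, MSH6, PMS1 and PMS2) and in 45% of all windows. PMS2 has 2 windows, and members are counted by gene whereas the shares are by window. The windows with an E2F-like match are shown because E2F factors are known to drive genes of S phase, when mismatch repair acts. Capitals mark E2F-like matches and, in MSH6, also a CCAAT match on the other strand.
MSH6, chr2:47782895-47783194, plus strand: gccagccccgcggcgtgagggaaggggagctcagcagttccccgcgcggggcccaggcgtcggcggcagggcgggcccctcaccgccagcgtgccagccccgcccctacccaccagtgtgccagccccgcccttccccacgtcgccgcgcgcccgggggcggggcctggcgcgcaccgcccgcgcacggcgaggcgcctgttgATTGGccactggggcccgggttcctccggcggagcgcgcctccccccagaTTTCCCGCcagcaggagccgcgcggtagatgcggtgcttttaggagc
EXO1, chr1:241847954-241848253, plus strand: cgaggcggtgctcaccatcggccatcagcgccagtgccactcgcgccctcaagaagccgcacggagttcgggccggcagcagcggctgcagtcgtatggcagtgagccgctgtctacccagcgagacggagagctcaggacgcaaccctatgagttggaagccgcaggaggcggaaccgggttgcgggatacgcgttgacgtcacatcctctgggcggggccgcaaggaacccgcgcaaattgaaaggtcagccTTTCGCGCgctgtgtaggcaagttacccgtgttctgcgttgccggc
The E2F-like match begins at position 3 from the start site in MSH6 and at position 4 in EXO1. A match describes letters and not a site in use, and these data do not measure binding.

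The libraries were checked before the members were compared. Of the epithelial markers, EPCAM, KRT8, KRT18, KRT19 and CDH1 had at least 1676 counts in every library. VIL1, which encodes villin of the brush border, had 0 counts in HCT116 with LPS and 4 in HCT116 control, against 3004 in HT29 with LPS and 2637 in HT29 control. CDX2, an intestinal transcription factor, differed the other way, with 572 counts in HCT116 with LPS and 474 in HCT116 control, against 39 in HT29 with LPS and 18 in HT29 control. The leukocyte markers CD3E and HLA-DRA had 0 counts in every library and PTPRC had at most 2, while LYZ, which encodes lysozyme, had 0 counts in both HCT116 libraries, against 20709 in HT29 with LPS and 18532 in HT29 control. Of the fibroblast markers, COL1A2 and DCN had 0 counts throughout, but COL1A1, a collagen chain, had 1999 counts in HCT116 with LPS and 2225 in HCT116 control, against 59 in HT29 with LPS and 81 in HT29 control. The part of these marker differences in the results was not tested. Mitochondrial genome transcripts took 7.16% of counts in HCT116 with LPS and 5.01% in HCT116 control, against 4.29% in HT29 with LPS and 3.75% in HT29 control, and the part of this difference in the results was not tested. Counts were scaled by TMM, a method that corrects library size for differences in composition, and are given as CPM, the counts scaled to a common library total. The 7 epithelial markers summed to 5055 CPM in HCT116 with LPS and 5107 CPM in HCT116 control. In HT29 they summed to 17924 CPM with LPS and 19240 CPM in the control. The part of this gap in the results was not tested either. HCT116 was set against HT29 by the quasi-likelihood test of edgeR, with treatment as a block, so that the LPS library and the control library of a line stand in for its replicates. The test has 1 residual degree of freedom per gene, which is how far the line difference changes between LPS and control. The test therefore borrows spread across genes, and its p-values do not measure the spread between repeat cultures.

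HCT116 and HT29 expressed different mixtures of mismatch repair genes. MSH3 was much lower in HCT116 and MSH6 was moderately lower, while PMS2, PMS1 and EPM2AIP1 were higher. MLH3 and EXO1 did not pass the test. In all, 3 of the 7 members were called higher and 2 lower at an adjusted p below 0.05. The background is high, since 38.6% of the 14516 genes tested were called higher in HCT116 and 38% were called lower, so the number of calls says little about mismatch repair and the sizes of the differences matter more. The members' median log2 fold change was 0.05, beside 0.02 over all genes tested. The share of all genes tested with a lower log2 fold change was 4.69% for MSH3 and 28.4% for MSH6. It was 64.7% for PMS1, 72.5% for PMS2 and 80.5% for EPM2AIP1.

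**Figure D1:**
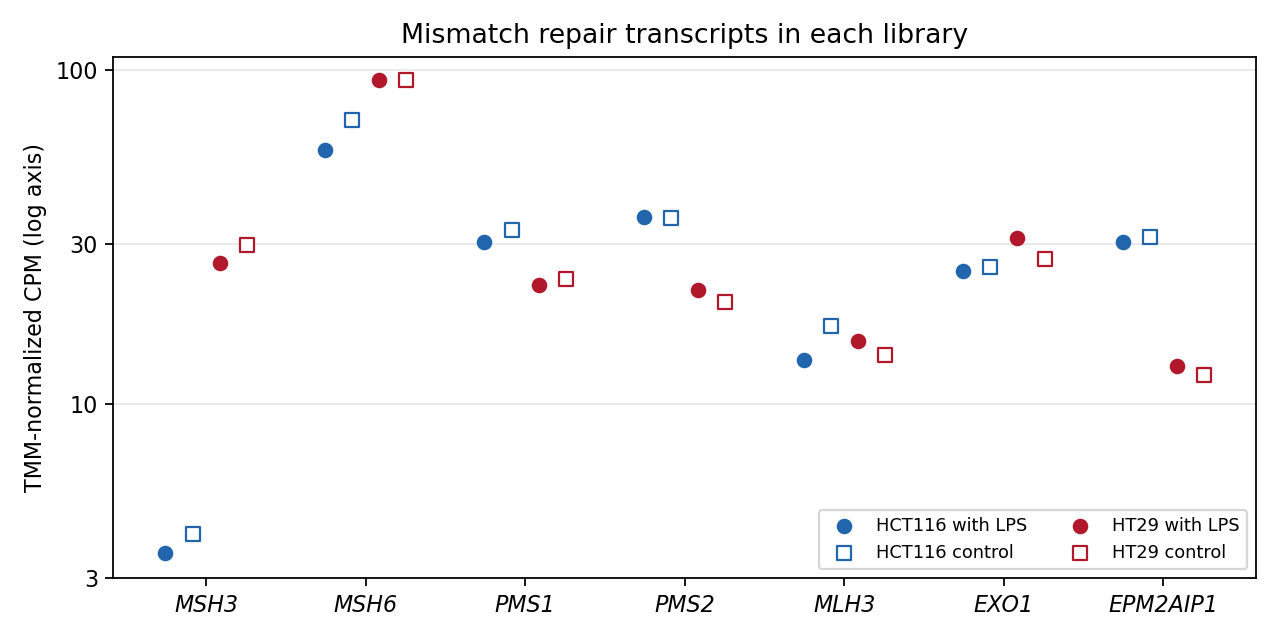
TMM-normalized CPM on a log axis for each member in HCT116 with LPS (filled blue), HCT116 control (open blue), HT29 with LPS (filled red) and HT29 control (open red), with 1 library per point. MSH3 lies at 3.58 and 4.07 CPM in HCT116, against 26.3 and 29.8 CPM in HT29, and the points of MLH3 overlap between the lines.

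MSH3 (ENSG00000113318.11, chr5:80654652-80876815) showed the widest gap of the members. It had 74 counts (3.58 CPM) in HCT116 with LPS and 92 counts (4.07 CPM) in HCT116 control, against 522 counts (26.3 CPM) in HT29 with LPS and 537 counts (29.8 CPM) in HT29 control. Both HCT116 libraries lie far below both HT29 libraries. The log2 fold change of HCT116 over HT29 was -2.87 (standard error, SE, 0.17, edgeR adjusted p = 6.21e-12), or 7.33-fold lower in HCT116. Of all genes tested, 7.21% had a log2 fold change below -2 and 4.69% had one below that of MSH3. With the libraries matched by treatment, the log2 ratio was -2.84 with LPS (95% counting interval -3.25 to -2.52) and -2.84 in controls (-3.21 to -2.55). These are exact Clopper-Pearson intervals that cover counting error only. In bulk RNA, fewer cells with the transcript and less of it in each cell cannot be told apart.

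MSH6 (ENSG00000116062.18, at chr2:47695530-47810063 in GENCODE 44), the partner of the other MutS dimer, was the most abundant member by CPM in every library. It had 1189 counts (57.4 CPM) in HCT116 with LPS and 1595 counts (70.5 CPM) in HCT116 control, against 1848 counts (93.1 CPM) in HT29 with LPS and 1677 counts (93.0 CPM) in HT29 control. The HCT116 libraries were again below the HT29 libraries, without overlap. The log2 fold change was -0.55 (SE 0.08, edgeR adjusted p = 3.38e-06), which is 1.46-fold lower in HCT116. The log2 ratio was -0.70 between the LPS libraries (interval -0.80 to -0.59) and -0.40 between the controls (interval -0.50 to -0.30), and these intervals do not overlap. In GENCODE 44 the 3′ part of MSH6 shares exon bases with FBXO11 on the opposite strand, and reads from there cannot be told apart because the strand setting of the counting is not given in the sources used here.

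Because MSH3 fell by far more than MSH6, the balance of the MutS partners differed between the lines. Per kilobase of the deposited gene length, the MSH6 level was 7.95 times that of MSH3 in HCT116 with LPS (interval 6.28 to 10.2) and 8.58 times in HCT116 control (6.95 to 10.7). It was 1.75 times that of MSH3 in HT29 with LPS (1.59 to 1.93) and 1.55 times in HT29 control (1.40 to 1.71). The intervals of the HCT116 libraries lie above those of the HT29 libraries. The ratio depends on the gene lengths used, because the deposited length of MSH6 is 10770 bases and its canonical transcript has 4265. With canonical lengths, which were tried only once the values were known, the ratios were 16.7 and 18.1 in HCT116, against 3.69 and 3.25 in HT29.

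Of the MutL genes, PMS2 and PMS1 were higher in HCT116, and MLH3 did not differ beyond the spread. PMS2 (ENSG00000122512.16, chr7:5970925-6009130) had 748 counts (36.1 CPM) in HCT116 with LPS and 815 counts (36.0 CPM) in HCT116 control, against 436 counts (22.0 CPM) in HT29 with LPS and 364 counts (20.2 CPM) in HT29 control. Its log2 fold change was 0.78 (SE 0.12, edgeR adjusted p = 5.38e-06), or 1.71-fold higher in HCT116, and the groups did not overlap. PMS2 has many partial copies on chromosome 7, so its reads can be split among them and its value is uncertain. A stretch of 1662 bases of its canonical transcript matched a non-coding gene on chromosome 7 at 98.2% identity. PMS2CL, the most counted of the copies, had 436 and 507 counts in HCT116 with LPS and HCT116 control, against 192 and 231 counts in HT29 with LPS and HT29 control. Its log2 fold change was 0.96 (SE 0.16, edgeR adjusted p = 1.60e-05). The 12 PMS2-named copies with counts differed among themselves, since PMS2P3 had a log2 fold change of -0.92 and PMS2P1 one of -0.02. With PMS2 and all its copies summed, the log2 fold change was 0.42 and still passed the test.

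PMS1 (ENSG00000064933.19, chr2:189784085-189877629) had 630 counts (30.4 CPM) in HCT116 with LPS and 747 counts (33.0 CPM) in HCT116 control, against 450 counts (22.7 CPM) in HT29 with LPS and 425 counts (23.6 CPM) in HT29 control. The HCT116 libraries lay above both HT29 libraries. Its log2 fold change was 0.46 (SE 0.12, edgeR adjusted p = 0.0017), or 1.37-fold higher in HCT116. MLH3 (ENSG00000119684.16, chr14:75013769-75051532) was the least expressed MutL gene. It had 279 counts (13.5 CPM) in HCT116 with LPS and 387 counts (17.1 CPM) in HCT116 control, against 305 counts (15.4 CPM) in HT29 with LPS and 252 counts (14.0 CPM) in HT29 control, and the groups overlapped. The log2 fold change was 0.05 (SE 0.17, edgeR adjusted p = 0.78). The matched ratios of MLH3 pointed in opposite directions, with -0.19 between the LPS libraries (interval -0.43 to 0.05) and 0.29 between the controls (interval 0.06 to 0.53).

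EXO1 (ENSG00000174371.17, chr1:241847967-241895148) was slightly below its HT29 level in HCT116, by an amount that the test did not separate from the spread. It had 515 counts (24.9 CPM) in HCT116 with LPS and 580 counts (25.6 CPM) in HCT116 control, against 620 counts (31.2 CPM) in HT29 with LPS and 490 counts (27.2 CPM) in HT29 control. The groups did not overlap, but the log2 fold change was only -0.21 (SE 0.12, edgeR adjusted p = 0.13). The matched log2 ratio of EXO1 was -0.33 between the LPS libraries (interval -0.50 to -0.16) and -0.08 between the controls (interval -0.26 to 0.09). With 1 HT29 library left out, the fit had no LPS block, so treatment is mixed into the line difference. The fitted log2 fold change of EXO1 was then -0.10 without HT29 with LPS and -0.31 without HT29 control. EPM2AIP1 (ENSG00000178567.8, chr3:36985043-36993131), a gene of 1 exon, had the largest increase of the members. It had 629 counts (30.4 CPM) in HCT116 with LPS and 716 counts (31.7 CPM) in HCT116 control, against 258 counts (13.0 CPM) in HT29 with LPS and 220 counts (12.2 CPM) in HT29 control. The log2 fold change was 1.30 (SE 0.14, edgeR adjusted p = 3.80e-08), or 2.46-fold higher in HCT116, while 23.5% of all genes tested had a log2 fold change above 1.

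**Figure D2:**
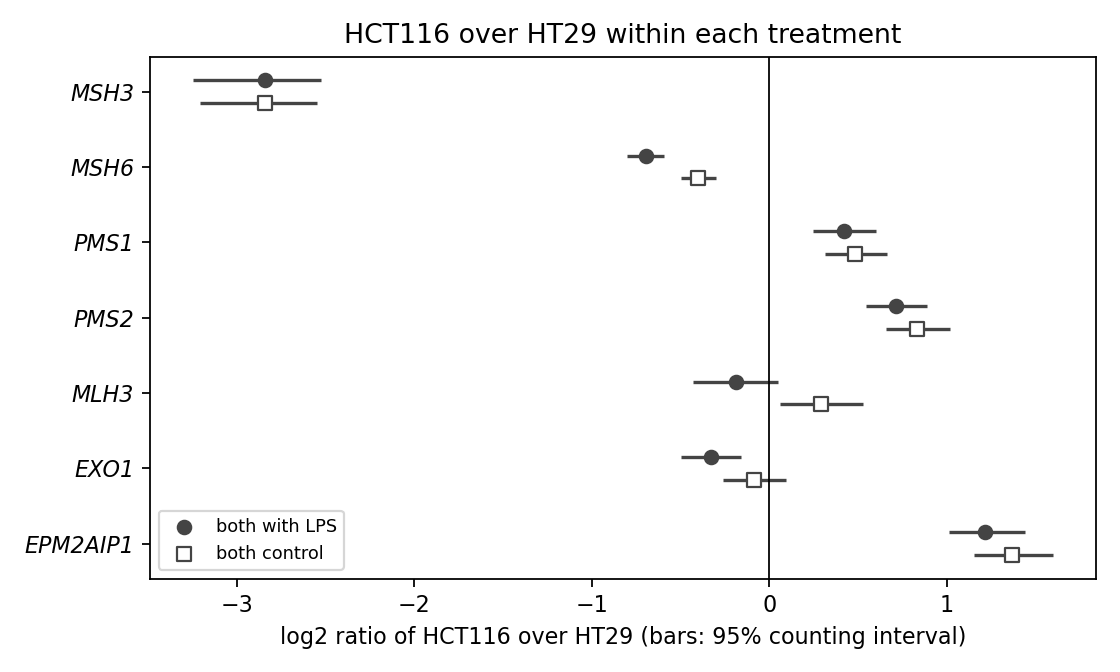
Log2 ratio of HCT116 over HT29 for each member, between the libraries with LPS (filled circles) and between the control libraries (open squares), where bars are 95% counting intervals and each line and treatment has 1 library. MSH3 lies at -2.84 in both treatments, EPM2AIP1 lies at 1.22 with LPS and 1.37 in controls, and the MLH3 points fall on opposite sides of 0.

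The order of the members by level also differed. Per kilobase of the deposited gene length, mean levels in HCT116 were 6.11 CPM for EXO1, 5.94 for MSH6, 5.82 for PMS1, 5.79 for PMS2, 3.83 for EPM2AIP1, 1.83 for MLH3 and 0.72 for MSH3. The ranges over the 2 HCT116 libraries overlapped between MSH6 and each of EXO1, PMS1 and PMS2. The range of PMS1 also overlapped those of EXO1 and PMS2. By these lengths EXO1, MSH6, PMS1 and PMS2 have no clear order, except that EXO1 lay above PMS2. EPM2AIP1, MLH3 and MSH3 were each separated from the gene before. In HT29 the order was 8.64 CPM per kilobase for MSH6, 7.06 for EXO1, 5.26 for MSH3, 4.24 for PMS1, 3.38 for PMS2, 1.75 for MLH3 and 1.56 for EPM2AIP1, and neighbours in this order did not overlap between the 2 libraries. By these lengths MSH3 was the lowest member in HCT116 and came after MSH6 and EXO1 in HT29, where EPM2AIP1 was last. The order depends on the lengths used. Per kilobase of the canonical transcript, also tried once the values were known, MSH6 came first in HCT116, above means of 10.1 CPM for PMS1, 7.32 for EXO1 and 7.08 for PMS2. In HT29 the mean of PMS1 (7.32) was then above that of MSH3 (6.31). With either length MSH3 was last in HCT116 and EPM2AIP1 last in HT29.

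The genes that start beside PMS1 and PMS2 on the opposite strand did not follow them. ORMDL1, a regulator of sphingolipid synthesis that starts 279 bases from PMS1, was lower in HCT116 (log2 fold change -0.34, SE 0.11, adjusted p = 0.0082 from edgeR), opposite to PMS1. AIMP2, a scaffold protein of the tRNA synthetase complex that starts 125 bases from PMS2, was lower as well (log2 fold change -0.44, SE 0.10, adjusted p = 5.07e-04 from edgeR), opposite to PMS2. ENSG00000288723, a non-coding gene beside EXO1, had at most 8 counts in any library and was not tested.

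The genes around MSH3 were mixed. Of 13 other genes analysed here that lie at least partly within 1 Mb of its start, 3 were called higher and 4 lower in HCT116, and their median log2 fold change was 0.15. Over all genes tested, 38.6% were called higher and 38% lower. RASGRF2 was the only gene of the 13 with a lower log2 fold change than MSH3, and it is named after its values were seen. It encodes an exchange factor for Ras and Rac proteins, and it begins 306 kb downstream of the MSH3 start on the same strand, as the next tested gene. RASGRF2 had 23 counts in HCT116 with LPS and 17 in HCT116 control, against 722 in HT29 with LPS and 588 in HT29 control, with a log2 fold change of -5.21 (SE 0.21, edgeR adjusted p = 7.85e-15).

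**Figure D3:**
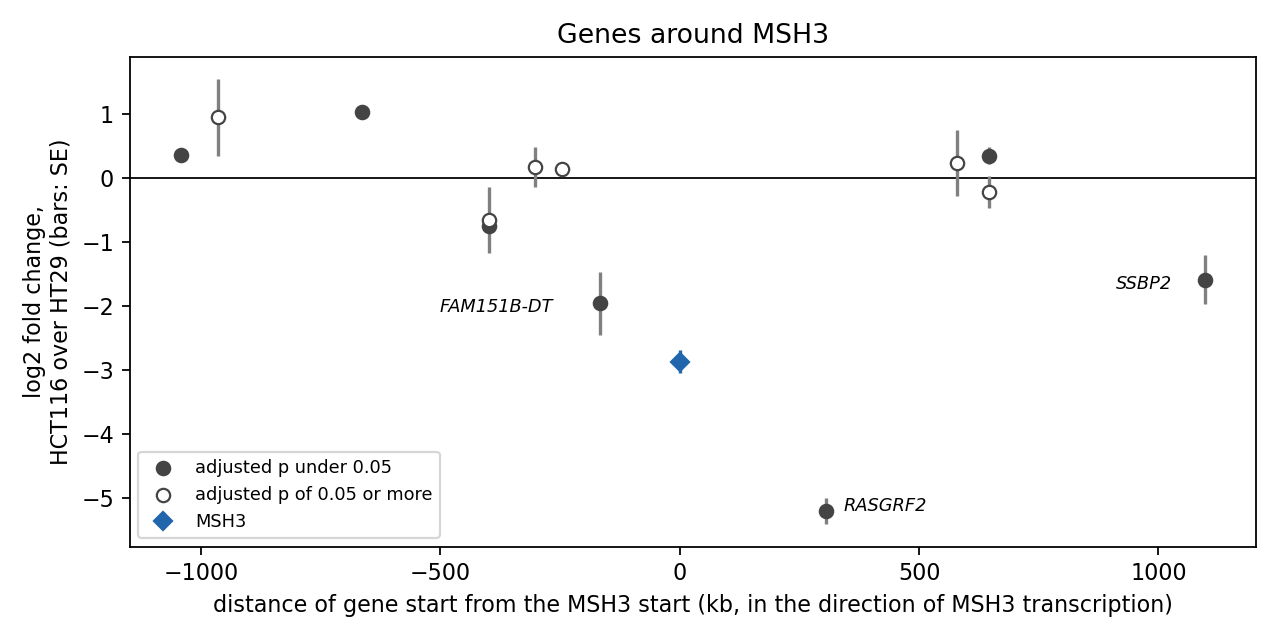
Log2 fold change of HCT116 over HT29 (bars, standard error from edgeR) for MSH3 (blue diamond) and the 13 other genes around it, by the distance of their start from the MSH3 start in kb. Filled points have an adjusted p below 0.05. MSH3 at -2.87 lies above RASGRF2 at -5.21, and the other points run from -1.96 for FAM151B-DT to 1.04 for MTX3.

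Replication factors that work with mismatch repair were mostly lower in HCT116. Of the 20 genes for the sliding clamp, its loader, the single-strand binding proteins, replicative polymerases, the flap nuclease, the ligase and the chromatin protein HMGB1, 16 were called lower and 2 higher, with a median log2 fold change of -0.58, compared with 38% lower and 0.02 over all genes. The largest differences were in POLE4, POLD3, RFC3 and POLD4. POLD3, a subunit of polymerase delta, had 329 counts in each HCT116 library, against 1080 in HT29 with LPS and 947 in HT29 control (log2 fold change -1.81, SE 0.11). RFC3, a subunit of the clamp loader, had 564 and 663 counts in HCT116 with LPS and HCT116 control, against 1874 and 1786 in HT29 with LPS and HT29 control (log2 fold change -1.77, SE 0.08). POLE4 and POLD4 had log2 fold changes of -1.84 and -1.39. RFC4 (log2 fold change 0.28) and RPA1 (0.37) were the genes called higher, and RPA2 and POLE did not pass the test. PCNA, the clamp itself, had a log2 fold change of -0.33 (SE 0.06).

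Proliferation genes moved in the same direction. Of 20 genes of S phase and proliferation, 15 were called lower in HCT116 and 3 higher, beside 38% and 38.6% over all genes. The median log2 fold change of the list was -0.56. The summed level of the list was 2767 and 2866 CPM in HCT116 with LPS and HCT116 control, against 4602 and 4388 CPM in HT29 with LPS and HT29 control. CDC45, of the replicative helicase, had a log2 fold change of -2.06, and E2F1, a factor of the E2F family, one of -1.76. TOP2A and MKI67, which mark cycling cells, had -1.45 and -0.98. CCNE2, CCNE1 and CDT1 were the genes called higher (log2 fold changes 0.89, 0.47 and 0.45). Most of the list moved in the same direction as MSH6, MSH3 and most replication factors and opposite to PMS1, PMS2 and EPM2AIP1, and its part in their values was not tested. EXO1 (log2 fold change -0.21) and MLH3 (0.05) were not called.

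MSH4 and MSH5, further MutS genes, were read at low levels. MSH4, which acts in meiotic crossing over, had 51 counts in HCT116 with LPS and 84 in HCT116 control, against 1 in HT29 with LPS and 0 in HT29 control. Summed over each line, that is 135 counts in HCT116 and 1 in HT29, a ratio of 118 with a counting interval of 20.8 to 4698. MSH5, its partner, had 20 and 16 counts in HCT116 with LPS and HCT116 control, and 3 in each HT29 library, too few to enter the test. In the list that also holds accessory factors, 3 of the 7 tested genes were called higher and 2 lower. The shares over all genes were 38.6% and 38%. HDAC6 and USP10 were higher in HCT116 (log2 fold changes 0.83 and 0.28) and MCM8, a helicase paralogue, was lower (-0.75). SETD2, which writes the histone mark that MSH6 binds, had a log2 fold change of 0.14 and did not pass the test (adjusted p = 0.076 from edgeR).

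Genes with coding repeats that are often mutated in mismatch repair deficient tumours leaned lower in HCT116. Of 14 such genes, 12 were tested, 8 were called lower and 1 higher, with a median log2 fold change of -0.66. The shares over all genes were 38% lower and 38.6% higher. TGFBR2, a receptor of TGF-beta, had 1098 and 1167 counts in HCT116 with LPS and HCT116 control, against 3180 and 2732 in HT29 with LPS and HT29 control (log2 fold change -1.57, SE 0.07). MRE11, a nuclease of double-strand break repair, and MBD4, a glycosylase, had log2 fold changes of -1.53 and -1.52. TCF7L2, a transcription factor of the Wnt pathway, was the gene called higher (log2 fold change 1.57, SE 0.07). ACVR2A, BAX and RAD50 did not pass the test, and CASP5 and AIM2 had at most 1 count. MSH3, which carries the repeat printed above, had a lower log2 fold change than each of the 12 tested genes of this list, while MLH3, MSH6 and PMS2, which carry such repeats too, had values of 0.05, -0.55 and 0.78.

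Other repair pathways showed no common direction. For comparison, 38.6% of all genes tested were called higher and 38% lower in HCT116. Of 17 base excision repair genes, 6 were called higher and 9 lower in HCT116, with a median log2 fold change of -0.24. NEIL2 and NEIL1, glycosylases for oxidised bases, were highest with log2 fold changes of 3.14 and 2.55, POLB had 1.33, and MBD4 had -1.52. Of 14 nucleotide excision repair genes, 5 were higher and 5 lower, with a median of 0.08. The damage sensors XPC and DDB2 were higher in HCT116 (log2 fold changes 2.41 and 1.76), and GTF2H1 and CETN2 were lower (-1.26 and -1.18).

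**Figure D4:**
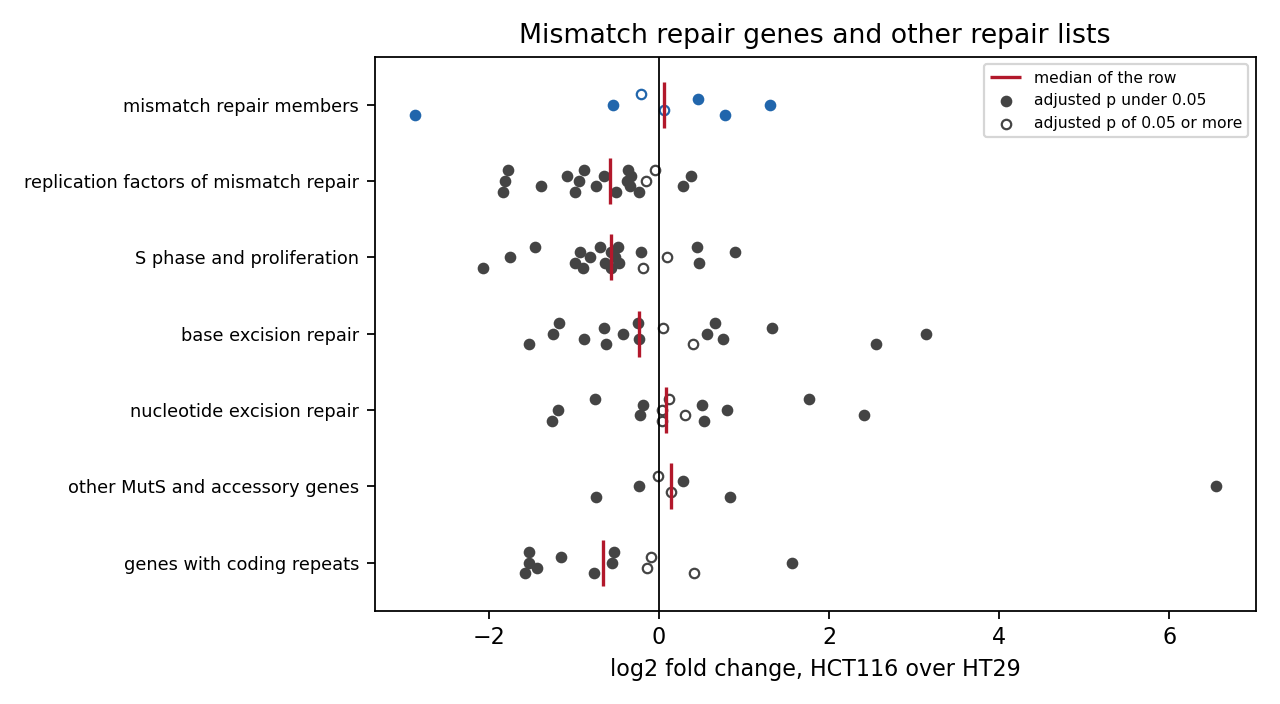
Log2 fold change of HCT116 over HT29 for the 7 mismatch repair members (blue) and for the tested genes of the other lists (grey), with filled points for an adjusted p below 0.05 and a red line at each median. The medians of the replication factors (-0.58), the S phase genes (-0.56) and the genes with coding repeats (-0.66) lie below 0, and the members spread from -2.87 to 1.30. The point at 6.55 is MSH4, whose fitted value depends on the prior count because HT29 had 1 count.

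With LPS, the mismatch repair genes stayed within a log2 ratio of 0.58 of their control levels in both lines, as most genes did. Within a line there is 1 library per condition, so the log2 ratio of LPS over control is given with its counting interval and no p-value. None of the 7 members lay beyond a log2 ratio of 0.58 in either direction in either line. Over all genes, 3.57% lay above 0.58 and 2.36% below -0.58 in HCT116, and 3.48% lay above and 2.66% below in HT29. With shares this small, 0 of 7 says little about mismatch repair. The members' log2 ratios ran from -0.34 to 0.0044 in HCT116 (median -0.12, against -0.0025 over all genes) and from -0.18 to 0.20 in HT29 (median 0.09, against -0.0076 over all genes).

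MSH6 and MLH3 were the members whose HCT116 interval lay below 0. MSH6 had 57.4 CPM in HCT116 with LPS and 70.5 CPM in HCT116 control, a log2 ratio of -0.30 (interval -0.41 to -0.19), whereas in HT29 the ratio was 0.0013 (interval -0.09 to 0.10). MLH3 had 13.5 CPM with LPS and 17.1 CPM without it in HCT116, a log2 ratio of -0.34 (interval -0.57 to -0.12), and 0.14 in HT29 (interval -0.11 to 0.38). In HT29, EXO1 lay above 0 with a log2 ratio of 0.20 (interval 0.03 to 0.37), and MSH3 lay just below 0 with -0.18 (interval -0.36 to -0.0031). The HCT116 log2 ratios were -0.04 for EXO1 and -0.18 for MSH3, with intervals that include 0. For PMS1, PMS2 and EPM2AIP1 the intervals of both lines included 0. Whether the LPS ratios of HCT116 and HT29 differ could not be tested with 1 library per condition.

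**Figure D5:**
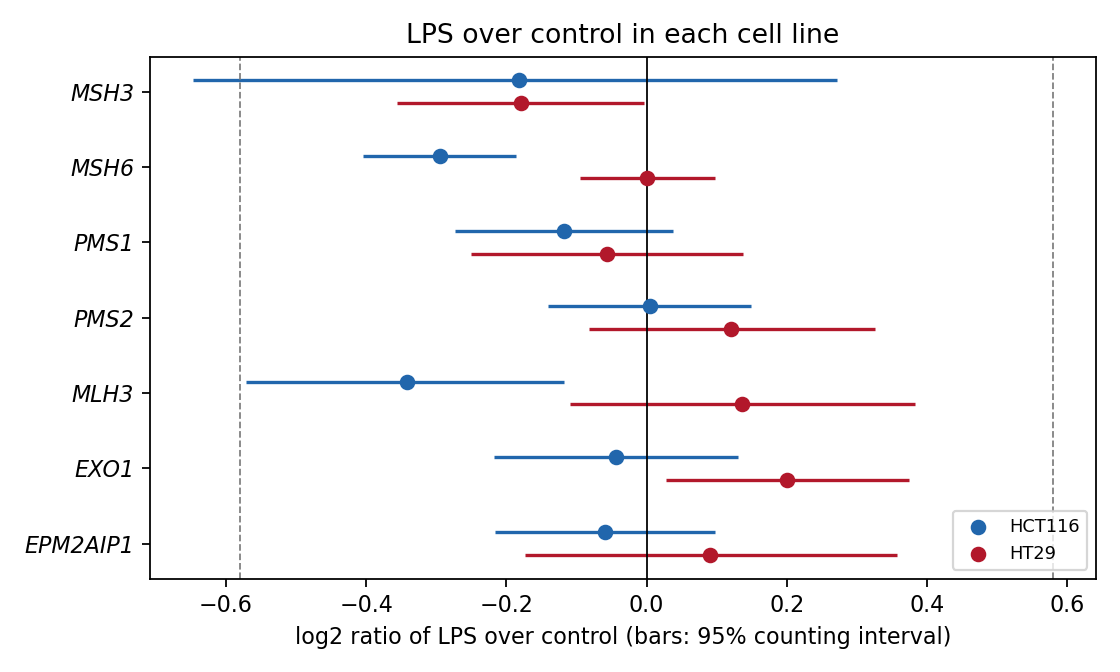
Log2 ratio of LPS over control for each member in HCT116 (blue) and HT29 (red), with 95% counting intervals as bars, 1 library per condition and dashed lines at 0.58 and -0.58. The points lie between -0.34 and 0.20, and the HCT116 intervals of MSH6 and MLH3 lie below 0.

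With both lines fitted together and the cell line as a block, edgeR's quasi-likelihood test called 0 of the 7 members for LPS. In edgeR 0 members had an unadjusted p under 0.05, and DESeq2 likewise had 0 under that value and called 0. An adjusted p from DESeq2 was available for MSH6 alone (0.68), so 0 calls by DESeq2 say little about the other members. Over all genes, edgeR called 0.124% higher and 0.0964% lower. The log2 fold changes of the members ran from -0.18 for MSH3 (SE 0.17) to 0.08 for EXO1 (SE 0.12). MSH6 had -0.14 (SE 0.08, edgeR adjusted p = 0.74). Of the 20 replication factors, 0 were called by edgeR or DESeq2, and 3 had an unadjusted p under 0.05 in each. The proliferation list also had 0 calls by either tool, with 3 genes under an unadjusted p of 0.05 in edgeR and 2 in DESeq2. Of the genes with coding repeats, edgeR called 0 and had 1 at an unadjusted p under 0.05, and DESeq2 called TCF7L2 as higher (log2 fold change 0.24, adjusted p = 0.019 from DESeq2).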

How the data were processed

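The deposited values are raw counts per gene. According to the paper and the submitters' notes, the authors trimmed the reads (cutadapt 1.9 and Trimmomatic 0.39), mapped them onto hg38 by HISAT2 2.1.0 and obtained gene counts from featureCounts 2.0.1. For the GENCODE release, the strand option and the handling of reads with several alignments, the sources used here state no setting. The gene length column (unit other), also deposited by the authors, was used for levels per kilobase.

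Members were matched by gene ID to GENCODE 44 symbols (hg38), and printed positions are those of GENCODE 44. Its models of MSH6 and PMS2 are later versions than those counted. They hold 17722 and 11237 exon bases, against deposited lengths of 10770 and 6231. Tests were run with edgeR 4.0.16 in R 4.3.3 on the 14516 genes that averaged 1 CPM or more, with Benjamini-Hochberg adjustment over all of them. Log2 ratios of library pairs used a prior count of 2. DESeq2 1.42.0, other scalings, filters, prior counts and blocks, and leaving out each library were tried as alternatives. The test functions were checked on simulated data. Copies were searched with minimap2 among GENCODE transcripts (at least 98% identity over 200 bases).

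The members and lists were chosen with earlier results of these data known. Named genes are the members, PMS2 copies, opposite-strand neighbours within 1000 bases (not reported for EPM2AIP1 and MSH3), up to 4 called genes with the largest difference per list, and the 3 genes nearest in pattern to MSH3. Genes outside this rule, such as PCNA and SETD2, were named after their values were seen. No column belonged to another series (0 columns).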

Additional observations from a re-analysis of the deposited data

How the results depend on the processing

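The calls of MSH3, MSH6, PMS1, PMS2 and EPM2AIP1 between the lines held under all 12 alternatives, including each left-out library, which was fitted without the LPS block. The log2 fold change of MSH3 ran from -2.97 to -2.72 and that of EPM2AIP1 from 1.26 to 1.45. MLH3, never called, ran from -0.12 to 0.23 with 1 library left out, with -0.12 without HCT116 control and -0.0047 without HT29 control. Scaling by library size alone shifted the log2 fold changes of all genes by a median of 0.15. For LPS, the fold change of PMS2 became -0.047 when summed with its copies and that of EPM2AIP1 -0.016 with no cell line block, both uncalled. In the LPS test over both lines, 18 genes were called higher and 14 lower. The counts became 44 and 40 with DESeq2, 6 and 8 with DESeq2 size factors, and 58 and 45 with no filter. They became 78 and 58 with a minimum mean of 5 CPM, and 0 and 0 with no cell line block. Without mitochondrial genes, 22 were lower. The members called stayed at 0 throughout, although with DESeq2 only MSH6 had an adjusted p. Genes beyond 0.58 within a line became 73 above and 42 below in HCT116, and 60 and 73 in HT29, with a minimum mean of 5 CPM, and 121 and 89 in HCT116, and 134 and 82 in HT29, with a threshold of 1. The causes were not tested. Beyond the blocks for treatment and cell line already in the tests, no pairing by replicate number exists, since each condition has 1 library, and leaving out a library leaves the LPS test without residual degrees of freedom. At 74 and 92 counts in HCT116, MSH3 is too thinly read to resolve an LPS ratio within -0.65 to 0.27.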

Other observations

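The genes whose pattern over the 4 libraries lay nearest to that of MSH3, by Euclidean distance of centred log2 CPM among 14516 genes, were TMEM88B (distance 0.09), MAML3 (0.11) and CABLES1 (0.13). CABLES1, a regulator of cyclin-dependent kinases, had 291 and 336 counts in HCT116 with LPS and HCT116 control, against 1852 and 1827 in HT29 with LPS and HT29 control. MAML3, a coactivator of Notch signalling, had 92 and 108 counts in HCT116, against 605 and 599 in HT29. With 4 libraries of 2 lines, such a likeness mostly restates a similar gap between HCT116 and HT29.

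Around EXO1, the 3 other tested genes within 1 Mb of its start were all called lower in HCT116, and they are named after their values were seen. Among all genes tested, 38% were called lower. FH, the fumarate hydratase of the citrate cycle, had a log2 fold change of -0.94, OPN3 one of -1.52 and CHML one of -1.55, while EXO1 itself had -0.21 and was not called.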
